A study of Mus musculus with 20 samples.

Results

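The 10 genes described here encode regulators of G protein signalling (RGS proteins): Rgs2, Rgs3, Rgs4, Rgs5, Rgs7, Rgs8, Rgs10, Rgs16, Rgs17 and Rgs20. The rule that picks them is their symbol, though the set was proposed with earlier results of these data known. All 10 were found among the 22556 genes of the wild-type stage table and in both knockout tables. RGS proteins bind the active, GTP-loaded alpha subunit of a heterotrimeric G protein and speed up its GTP hydrolysis, which shortens the signal of the receptor upstream. In serotonin (5-HT) neurons, Gi/o-coupled autoreceptors open GIRK potassium channels and slow firing, and Gq-coupled receptors excite, so both routes pass through proteins that RGS proteins act on. The family is divided by structure into the R4 group (here Rgs2, Rgs3, Rgs4, Rgs5, Rgs8 and Rgs16), the R7 group (Rgs7), the R12 group (Rgs10) and the RZ group (Rgs17 and Rgs20).

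The study followed sorted EYFP+ 5-HT neurons of C57BL/6 mice through development and asked what the ETS transcription factor Pet-1, encoded by Fev, does in them. At E15.5, neurons of the genotype Pet-1-/- were set against wild-type neurons, with 3 libraries per genotype for each of 2 amplification kits, Clontech SMARTer and NuGEN Ovation. The stage series was wild type only, with 3 libraries each at E11.5, at E15.5 and at postnatal day 1 to 3 (PN), all made with the Clontech kit per the labels' protocols. For chromatin, 1 sample with 1 input was prepared from hindbrain tissue dissected for its fluorescence, with Myc-tagged Pet-1 precipitated. The labels of that sample conflict. Its stage field gives E12.5 to E14.5, and the protocol names E15.5 as the last age. Its genotype field says wild type, and the protocol describes embryos that lack Pet-1 and carry the transgenes ePet-mycPet-1 and ePet-EYFP, both named for an enhancer of the Pet-1 gene. The tagged protein in those embryos therefore came from a transgene. The promoter that drove EYFP in the neurons sorted for RNA, and whether animals were pooled, are not given in the sources used here. Nothing in the labels says that libraries of a group came from separate animals, so the p-values below measure only the spread between these libraries, which may be technical.

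Levels are in FPKM, sequenced fragments scaled to transcript length and to the mapped total. The files give no read numbers, so the depth behind each value is unknown and no counting error could be given. The 9 stage libraries had 9614 to 11280 genes at 1 FPKM or more, and log2 values correlated at 0.938 to 0.979 between libraries of a stage and at 0.874 to 0.936 between stages. The 9 defining genes of serotonin neurons were present in every library, with a summed level of 1049 to 1436 FPKM in the E11.5 libraries, 472 to 568 FPKM in the E15.5 libraries and 492 to 738 FPKM in the PN libraries. Markers of other cell types moved between stages and between genotypes, and their values stand beside the results. One library stood apart. PN library b held 1076 FPKM over 10 microglial genes, against 130.4 and 124.2 FPKM in PN libraries a and c, and the PN results below are also given without it where they turn on it. In these sorted bulk samples, fewer cells that express a gene and less RNA per cell cannot be told apart.

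The start regions of 4 members are shown as examples chosen after their levels had been seen (Rgs10, Rgs17 and Rgs4 were higher at PN, Rgs3 was lower), and because Pet-1, as an ETS factor, binds sites built around GGAA. Each is 250 bases before to 50 bases after an annotated start, from RefSeq on GRCm38.p6, in the gene's own direction. The windows are chr7:128418123-128418422 on the minus strand for Rgs10, chr10:5922351-5922650 on the minus strand for Rgs17, chr1:169747593-169747892 on the minus strand for Rgs4 and chr4:62559597-62559896 on the plus strand for the upstream of the 2 annotated Rgs3 starts. The Rgs10 window lies inside the annotated gene span, which reaches to 128419506. Capitals mark matches, read on both strands, to any of 4 motifs. A match to GGAAGT was taken as an ETS-type site, and so was a match to CCGGAA as another form of it. The motif GGGCGG is the GC box to which factors of the Sp type bind. The last motif, TATAAA, is the TATA box known from many tightly regulated promoters.
Rgs10: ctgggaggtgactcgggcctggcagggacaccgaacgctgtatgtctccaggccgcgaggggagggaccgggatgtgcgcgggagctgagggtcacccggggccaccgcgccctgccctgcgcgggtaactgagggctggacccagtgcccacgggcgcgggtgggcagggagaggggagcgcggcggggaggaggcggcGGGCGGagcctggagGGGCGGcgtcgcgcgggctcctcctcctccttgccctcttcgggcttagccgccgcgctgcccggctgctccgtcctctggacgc
Rgs17: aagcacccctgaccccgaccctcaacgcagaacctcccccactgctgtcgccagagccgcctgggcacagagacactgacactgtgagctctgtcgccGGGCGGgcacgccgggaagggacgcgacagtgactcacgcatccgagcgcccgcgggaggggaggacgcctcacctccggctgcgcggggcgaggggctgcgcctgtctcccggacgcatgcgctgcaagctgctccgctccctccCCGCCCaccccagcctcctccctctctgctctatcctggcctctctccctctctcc
Rgs4: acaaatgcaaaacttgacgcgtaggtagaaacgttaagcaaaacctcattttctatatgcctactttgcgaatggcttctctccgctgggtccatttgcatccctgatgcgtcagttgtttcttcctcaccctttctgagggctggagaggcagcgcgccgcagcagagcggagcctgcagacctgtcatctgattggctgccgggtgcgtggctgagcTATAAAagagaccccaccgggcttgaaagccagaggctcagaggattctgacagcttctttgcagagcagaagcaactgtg
Rgs3: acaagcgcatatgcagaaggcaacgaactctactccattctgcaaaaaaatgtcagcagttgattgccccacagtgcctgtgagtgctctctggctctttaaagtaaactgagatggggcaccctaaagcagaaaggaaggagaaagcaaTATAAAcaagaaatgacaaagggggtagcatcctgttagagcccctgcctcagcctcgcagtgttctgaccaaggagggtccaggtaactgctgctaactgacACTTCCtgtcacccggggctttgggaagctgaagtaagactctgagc
Rgs10 and Rgs17 have GC-rich start regions, at 76% and 71% G or C with 34 and 27 CpG dinucleotides, against a median of 52.67% and 7 over all 32851 windows of this length. The Rgs4 window has 53% G or C with 13 CpG, and a single TATAAA close to its start. The Rgs3 window has 49.7% G or C with 4 CpG, a TATAAA and, on the minus strand, a GGAAGT. In all, 9 of the 10 members had an entry, with 12 windows between them, of which Rgs8 had 3 and Rgs3 had 2. GGAAGT was in 1 of the 12, against 23.8% of all windows, and CCGGAA was in 0 of the 12, against 14.9%. GGGCGG was in 5 of the 12, against 35.7%, in the windows of Rgs2, Rgs10, Rgs16 and Rgs17 and in the downstream Rgs3 window. TATAAA, a motif added after the windows had been seen, was in 3 of the 12, against 13.6%, in both Rgs3 windows and the Rgs4 window. GGAAGT and CCGGAA can overlap in a longer site, and with no CCGGAA in these 12 windows no such overlap occurred.

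Only the 10 members are ranked here, and they are not the whole family. Rgs19, an RZ gene outside the set, had means of 70.3 ± 19.9, 67.9 ± 21.1 and 130.9 ± 25.5 FPKM at E11.5, E15.5 and PN. By mean it stood above every member at E11.5 and at E15.5. Rgs12, also outside the set, had 17.0 ± 6.89 FPKM at E11.5. Among the 10 members, the make-up in these neurons turned over with age. At E11.5 the R4 genes Rgs2 and Rgs3 led, with means of 17.6 ± 4.34 and 12.46 ± 2.56 FPKM (SD, n = 3 each); their libraries overlapped with each other, and those of Rgs3 lay clear of Rgs17 next at 3.71 ± 1.56 FPKM. Below it, Rgs17, Rgs7, Rgs20, Rgs8 and Rgs10 stood between 3.71 and 1.10 FPKM on average, each overlapping its neighbour in the order. At E15.5 Rgs10 led with 43.7 ± 8.21 FPKM, ahead of Rgs2 with 27.1 ± 7.53 FPKM, and neither overlapped the member next below it. Rgs3, Rgs17, Rgs7, Rgs8 and Rgs20 followed between 6.71 and 2.01 FPKM, each overlapping its neighbour. At PN Rgs10 stood at 181 ± 69.9 FPKM, clear of all other members. Rgs17 and Rgs2 came next with 27.6 ± 5.04 and 25.8 ± 4.20 FPKM and overlapped, Rgs7 stood alone at 11.2 ± 3.32 FPKM, and Rgs3, Rgs4 and Rgs8 overlapped between 4.55 and 3.74 FPKM. Rgs5 and Rgs16 stayed under 1 FPKM in all 9 libraries.

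**Figure D1:**
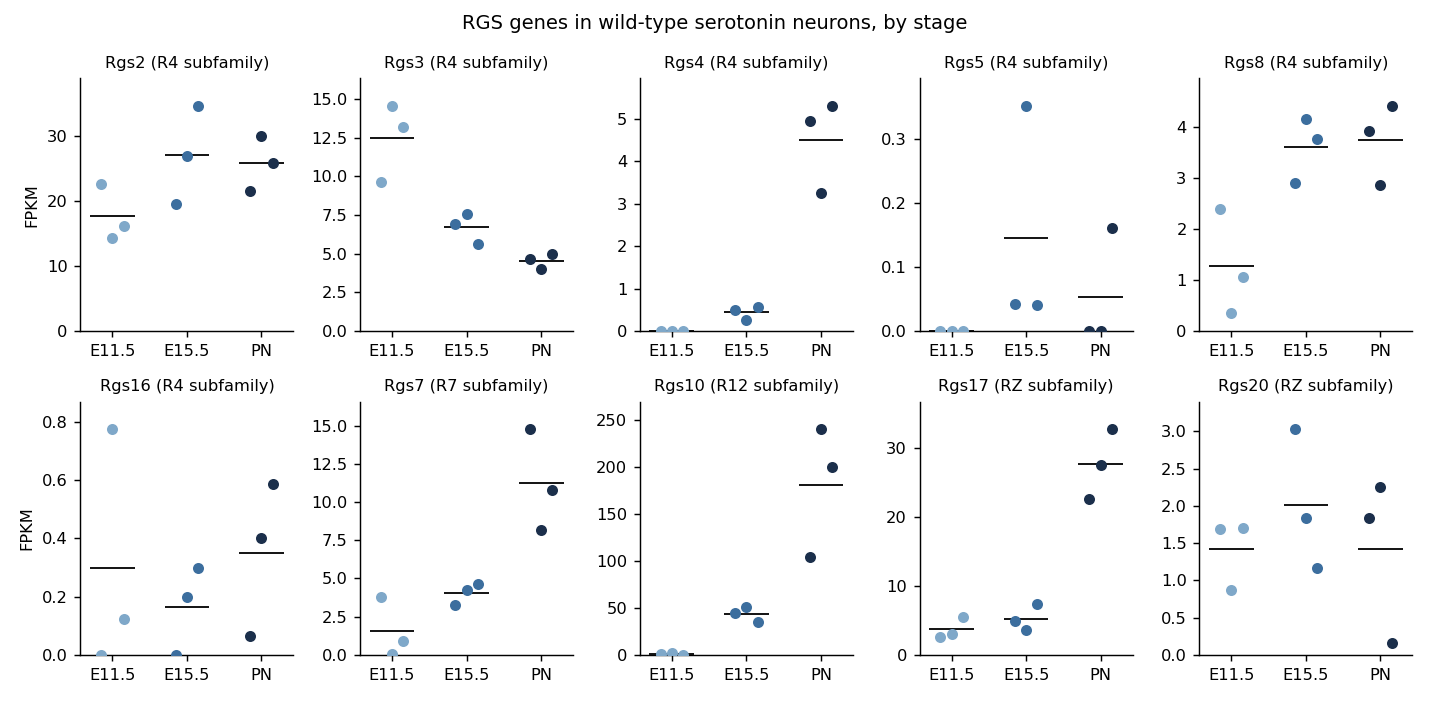
Level of each of the 10 RGS genes in FPKM (y axis, its own linear scale per gene) at E11.5, E15.5 and PN (x axis), with 1 point per wild-type library and a line at the mean of 3. Rgs3 steps down with stage, Rgs10 steps up at both intervals, and Rgs4, Rgs7 and Rgs17 have PN libraries clear of their E15.5 libraries.

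Summed over the 10 members, the level was 39.5 ± 3.76 FPKM in the E11.5 libraries, 93.2 ± 7.21 FPKM in the E15.5 libraries and 260.4 ± 73.1 FPKM in the PN libraries (SD, n = 3 each). The 3 stages did not overlap in this sum, whose ranges were 36.0 to 43.5, 86.0 to 100.4 and 178.3 to 318.5 FPKM. Rgs10 made up 2.90 ± 2.74% of the sum at E11.5, 47.0 ± 8.15% at E15.5 and 67.9 ± 8.75% at PN. Rgs2 made up 44.3 ± 6.62% at E11.5, 28.9 ± 7.43% at E15.5 and 10.2 ± 1.64% at PN, although its own level overlapped between all stages. The 6 R4 genes together held 31.7 ± 2.50, 38.1 ± 7.61 and 39.0 ± 3.34 FPKM at the 3 stages in order; the E15.5 libraries overlapped with both other stages, and the PN libraries, from 35.2 to 41.3 FPKM, lay just above the E11.5 libraries, from 30.0 to 34.5 FPKM. Of the 220.9 FPKM by which the mean sum was higher at PN than at E11.5, Rgs10 accounted for 180.0 FPKM. Rgs17 and Rgs7 were also higher at PN, and Rgs20 was not, with means of 1.43, 2.01 and 1.42 FPKM at the 3 stages in order.

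**Figure D2:**
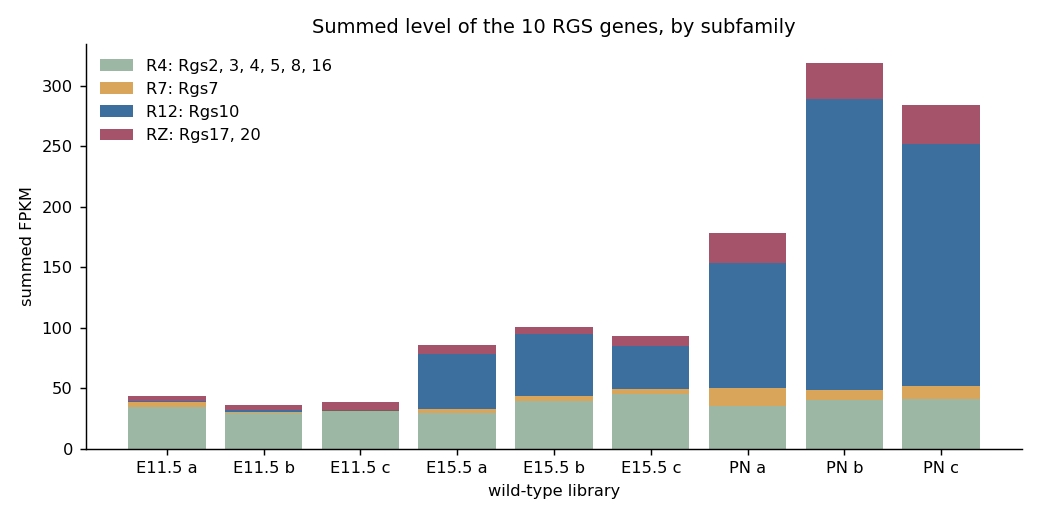
Summed FPKM of the 10 RGS genes (y axis) in each of the 9 wild-type libraries (x axis), as stacked bars with 1 colour for each of the R4, R7, R12 and RZ groups. The R4 part lies between 29.9 and 45.0 FPKM in all bars, and the R12 part, which is Rgs10 alone, reaches 103.9 to 240.0 FPKM at PN.

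For the tests, limma was fitted once to log2(FPKM + 1) in the 9 libraries over the 11741 genes that reached 1 FPKM in 3 or more libraries. A gene was called when its p, adjusted after Benjamini and Hochberg, was below 0.05 and its change was 1.5-fold or more. On this scale the change of low genes is understated. Of the 10 members 8 passed the filter, and Rgs5 and Rgs16 did not. For E15.5 over E11.5, 2 of the 8 were called, both higher (Rgs10 and Rgs8), against 28.9% of all genes tested (17.4% higher). For PN over E15.5, 3 were called, all higher (Rgs10, Rgs17 and Rgs4), against 20.2% of all genes (10.6% higher, 9.55% lower). For PN over E11.5, 6 were called, 5 higher (Rgs10, Rgs17, Rgs7, Rgs4 and Rgs8) and 1 lower (Rgs3), against 27.4% of all genes (17.4% higher, 10.02% lower). The median change of the 8 was 0.55, 0.64 and 1.79 on the log2 scale for these comparisons in order, beside 0.11, 0.01 and 0.08 over all genes tested. Rgs4 would not have passed the filter without the PN libraries, in which it is high, so it had to differ, and its calls at PN are no evidence of a share above that of all genes. The same limit holds for 356 of the 1249 genes called higher for PN over E15.5 and for 512 of the 2038 called higher for PN over E11.5. The members' medians for the comparisons with PN also include Rgs4. Without Rgs4, the middle value of the other members was that of Rgs8, at 0.04 for PN over E15.5 and 1.15 for PN over E11.5. The comparisons share libraries and are not independent of each other.

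Among the R4 genes, Rgs2 acts with a preference for the alpha subunit of Gq. It had 22.5, 14.3 and 16.1 FPKM in the E11.5 libraries, 19.6, 27.0 and 34.6 FPKM in the E15.5 libraries and 21.5, 29.9 and 25.9 FPKM in the PN libraries. The stages overlapped, and no stage comparison was called by limma: the log2 change was 0.58 ± 0.31 (SE, adjusted p = 0.181) for E15.5 over E11.5 and 0.54 ± 0.31 (adjusted p = 0.223) for PN over E11.5. In the authors' deposited table the first of these has a log2 change of 0.62 with q = 0.0397.

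Rgs3, which acts on Gi/o and Gq, was the only member called lower. Its level was 9.61, 14.6 and 13.2 FPKM in the E11.5 libraries, 6.91, 7.55 and 5.66 FPKM in the E15.5 libraries and 4.67, 3.99 and 4.98 FPKM in the PN libraries. No 2 stages overlapped. The log2 change for PN over E11.5 was -1.26 ± 0.32 (SE, limma adjusted p = 0.0101), with a PN mean of 4.55 ± 0.505 FPKM and an E11.5 mean of 12.46 ± 2.56 FPKM. Neither step alone was called: E15.5 over E11.5 had -0.79 ± 0.32 (adjusted p = 0.0788) and PN over E15.5 had -0.47 ± 0.32 (adjusted p = 0.318). The earlier step passed with upper quartile scaling (adjusted p = 0.0416), with no filter on low values (adjusted p = 0.0497) and in the authors' deposited table (q = 0.0352).

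Rgs4, a brain-enriched regulator of Gi/o and Gq signalling, was a late gene. It was listed at 0, 0 and 0.00874 FPKM in the E11.5 libraries, and had 0.497, 0.252 and 0.572 FPKM in the E15.5 libraries and 4.95, 3.25 and 5.31 FPKM in the PN libraries. No 2 stages overlapped, and all libraries above 1 FPKM were PN libraries, so the gene passed the filter on low values through that stage alone. For PN over E15.5 the log2 change was 1.92 ± 0.30 (SE, limma adjusted p = 0.00130), and without PN library b it was 2.10 (adjusted p = 0.00278). E15.5 over E11.5 had 0.52 ± 0.30 (adjusted p = 0.210) and was called only with a pseudocount of 0.1 (adjusted p = 0.0182).

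Rgs8, known in the brain for speeding the opening and closing of GIRK channels when they are driven by receptors, had 2.39, 0.357 and 1.05 FPKM in the E11.5 libraries, 2.90, 4.15 and 3.77 FPKM in the E15.5 libraries and 3.92, 2.87 and 4.42 FPKM in the PN libraries. The E11.5 libraries lay below all others, and E15.5 and PN overlapped. The log2 change was 1.11 ± 0.39 (SE, limma adjusted p = 0.0471) for E15.5 over E11.5, 0.04 ± 0.39 (adjusted p = 0.961) for PN over E15.5 and 1.15 ± 0.39 (adjusted p = 0.0428) for PN over E11.5. Both calls were at the edge of the threshold. The first was lost in 13 of 17 alternatives and the last in 14 of 16, among them the removal of any library except E11.5 library a, with adjusted p as high as 0.160 and 0.146.

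The other R4 genes were near the bottom of the scale and were not tested. Rgs5, a gene widely used as a marker of pericytes, was listed at 0, 0 and 0 FPKM in the E11.5 libraries, 0.0421, 0.353 and 0.0416 FPKM in the E15.5 libraries and 0, 0 and 0.161 FPKM in the PN libraries. The 8 pericyte markers summed to 0.389 to 14.0 FPKM in the E11.5 libraries, 30.1 to 70.4 FPKM in the E15.5 libraries and 0.717 to 15.9 FPKM in the PN libraries, with 1 of the 8 (Vtn) passing the filter. Nearly all of the E15.5 sum was Vtn, at 34.4, 68.7 and 28.9 FPKM in libraries a, b and c. Each other marker stayed below 1 FPKM in every E15.5 library. Kcnj8, Cspg4 and Anpep were listed at 0 in every E11.5 library. Rgs16, which acts on Gi/o and Gq, was listed at 0, 0.774 and 0.122 FPKM in the E11.5 libraries, 0, 0.199 and 0.299 FPKM in the E15.5 libraries and 0.0641, 0.400 and 0.586 FPKM in the PN libraries, and the stages overlapped.

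Rgs7 encodes an R7 protein that works as a complex with the beta subunit Gnb5 and acts on Gi/o. It had 3.80, 0.0342 and 0.930 FPKM in the E11.5 libraries, 3.26, 4.25 and 4.64 FPKM in the E15.5 libraries and 14.8, 8.16 and 10.8 FPKM in the PN libraries. The PN libraries lay above all others, while E11.5 and E15.5 overlapped through E11.5 library a. The log2 change for PN over E11.5 was 2.49 ± 0.50 (SE, limma adjusted p = 0.00257). The 2 steps had nearly the same size, 1.24 ± 0.50 (adjusted p = 0.0795) and 1.25 ± 0.50 (adjusted p = 0.0946), and neither was called. Without E11.5 library a both passed, with adjusted p = 0.00737 and 0.0262 and log2 changes of 1.83 and 1.25. The later step also passed in a fit of its 2 stages alone (adjusted p = 0.0190) and in the authors' deposited table (q = 0.00495).

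Rgs10, a small R12 protein that acts on Gi/o and is made both by neurons and, at high level, by microglia, had the largest change of the 8 tested members on the log2(FPKM + 1) scale for E15.5 over E11.5 and for PN over E11.5. For PN over E15.5 Rgs17 stood above it on that scale, and also by the ratio of mean FPKM, at 5.25 times against 4.14 times. By that ratio Rgs4 stood above Rgs10 in every comparison. Rgs4 had 151 times against 39.8 for E15.5 over E11.5, 10.2 against 4.14 for PN over E15.5 and 1545 against 165 for PN over E11.5. Its mean at E11.5 was only 0.00291 FPKM. The level of Rgs10 was 0.777, 2.17 and 0.347 FPKM in the E11.5 libraries, 44.9, 51.3 and 35.0 FPKM in the E15.5 libraries and 103.9, 240.0 and 199.4 FPKM in the PN libraries. No 2 stages overlapped. The mean was 39.8 times higher at E15.5 than at E11.5 and 4.14 times higher at PN than at E15.5. On the log2 scale the changes were 4.49 ± 0.39 (SE, limma adjusted p = 1.66e-05) for E15.5 over E11.5, 1.96 ± 0.39 (adjusted p = 0.00523) for PN over E15.5 and 6.45 ± 0.39 (adjusted p = 6.32e-07) for PN over E11.5.

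Markers of several other cell types moved with the earlier of these steps. Those of astrocytes and radial glia summed to 279.3 to 512 FPKM in the E11.5 libraries, 984 to 1876 FPKM in the E15.5 libraries and 377 to 1066 FPKM in the PN libraries. For E15.5 over E11.5 limma called 4 of their 7 tested genes higher and 1 lower. Red blood cell genes summed to 0 to 0.720 FPKM in the E11.5 libraries, 12.1 to 66.1 FPKM in the E15.5 libraries and 0.921 to 10.6 FPKM in the PN libraries, and 3 of 3 tested were called higher for that step. Genes of the oligodendrocyte lineage summed to 6.10 to 12.6 FPKM in the E11.5 libraries, 14.6 to 71.8 FPKM in the E15.5 libraries and 13.04 to 16.04 FPKM in the PN libraries, with 2 of 3 tested called higher. Pericyte sums were highest at E15.5 too, nearly all through Vtn, and are given beside Rgs5. Genes of other neurons summed to 1.27 to 5.30 FPKM in the E11.5 libraries, 7.27 to 10.5 FPKM in the E15.5 libraries and 19.04 to 70.4 FPKM in the PN libraries, with 2 of 3 tested called higher for E15.5 over E11.5. Endothelial genes stayed at or below 3.47 FPKM in sum in all 9 libraries. The 9 serotonin neuron genes went the other way, with 6 called lower and 0 higher. The part of these cells in the RGS levels, among them the calls of Rgs10 and Rgs8 for that step, was not tested.

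Microglial transcripts moved with the later Rgs10 step. Of the 10 microglial markers 8 were tested; 0 of them were called by limma for E15.5 over E11.5 (0 with an unadjusted p below 0.05), 6 were called higher for PN over E15.5 and 8 for PN over E11.5, of which 4 and 5 would not have passed the filter without the PN libraries. Their summed level was 2.66 to 11.1 FPKM in the E11.5 libraries, 7.81 to 27.6 FPKM in the E15.5 libraries and 124.2 to 1076 FPKM in the PN libraries. In PN libraries a and c, Tmem119 was listed at 0, and P2ry12 had 0.908 and 1.31 FPKM. Cx3cr1 had 0.678 and 1.58 FPKM there, and Csf1r had 1.34 and 1.15 FPKM. The other markers stood higher. C1qb had 53.6 and 51.2 FPKM, C1qc 23.5 and 18.6 FPKM, and Trem2 27.8 and 5.69 FPKM. C1qa had 8.95 and 17.9 FPKM, Tyrobp 7.34 and 17.4 FPKM, and Aif1 6.37 and 9.36 FPKM. Rgs10 was 103.9 and 199.4 FPKM in these libraries, whose microglial sums were 130.4 and 124.2 FPKM. Without PN library b, where that sum was 1076 FPKM, the Rgs10 change for PN over E15.5 was 1.71 (adjusted p = 0.0292) and for PN over E11.5 6.21 (adjusted p = 1.29e-05). The part of microglial RNA in the PN level was not tested further.

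Of the RZ genes, Rgs17, which acts on Gi/o and Gz and is known for its association with opioid receptors, had 2.66, 2.96 and 5.51 FPKM in the E11.5 libraries, 4.86, 3.56 and 7.37 FPKM in the E15.5 libraries and 22.6, 27.5 and 32.7 FPKM in the PN libraries. The E11.5 and E15.5 libraries overlapped, and the PN libraries were all higher. The log2 change was 0.41 ± 0.36 (SE, limma adjusted p = 0.422) for E15.5 over E11.5 and 2.22 ± 0.36 (adjusted p = 0.00176) for PN over E15.5, a mean 5.25 times higher at PN. Without PN library b the later change was 2.22 (adjusted p = 0.00970).

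Rgs20, an RZ protein selective for Gz, had 1.70, 0.874 and 1.71 FPKM in the E11.5 libraries, 3.03, 1.84 and 1.17 FPKM in the E15.5 libraries and 1.84, 2.25 and 0.161 FPKM in the PN libraries. All stages overlapped, and the log2 changes were 0.29 ± 0.43 (SE, limma adjusted p = 0.653) for E15.5 over E11.5 and -0.40 ± 0.43 (adjusted p = 0.539) for PN over E15.5. The low PN library c carried the sign of the later value, which was 0.06 without it. In RefSeq, the spans of Rgs3, Rgs17 and Rgs20 overlap long non-coding RNA genes or pseudogenes, and the sources used here do not say whether the authors' counting used strand.

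**Figure D3:**
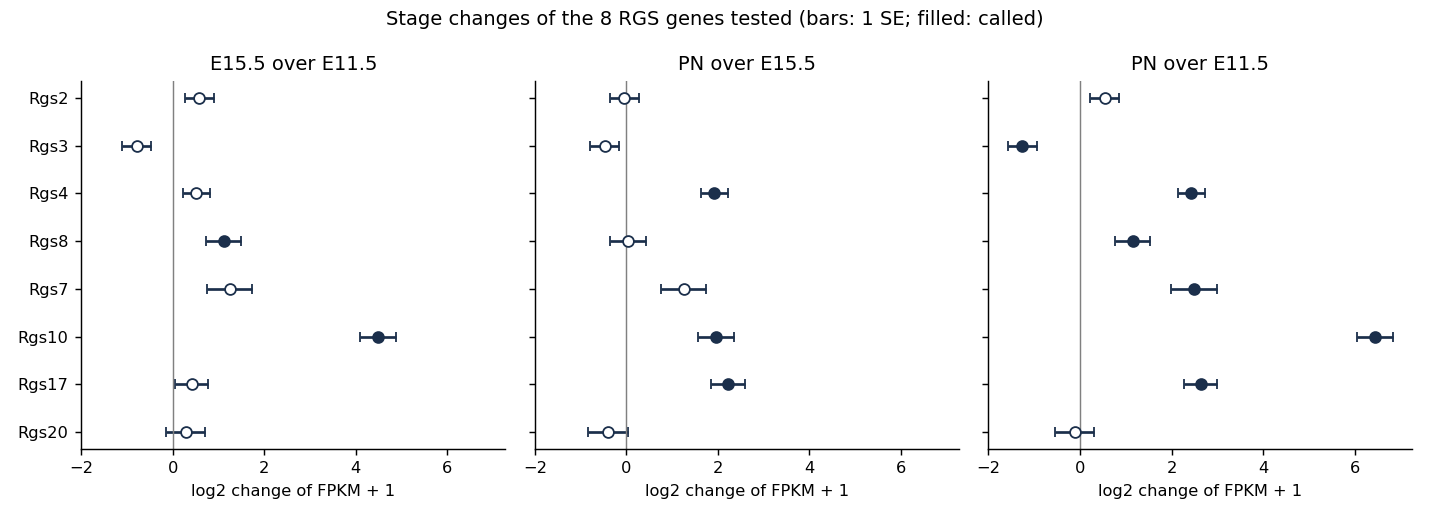
Change of each of the 8 tested RGS genes on the log2(FPKM + 1) scale (x axis) for E15.5 over E11.5, PN over E15.5 and PN over E11.5, with bars of 1 SE from the limma fit and filled points for called genes. Rgs10 is called in all 3 comparisons, and Rgs3 is the only gene called below 0.

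The timing of the changes was compared within the same fit, as the change from E15.5 to PN minus the change from E11.5 to E15.5. Of the 8 members 1 was called at an adjusted p below 0.05, against 22.6% of all genes tested (9.62% higher, 13.02% lower). On the log2(FPKM + 1) scale Rgs10 changed more in the earlier interval, with a difference of -2.53 ± 0.68 (SE, limma adjusted p = 0.0194). In FPKM its gain was larger in the later interval, with means of 1.10, 43.7 and 181 FPKM at E11.5, E15.5 and PN. The call was lost without E15.5 library a (adjusted p = 0.0762), without E15.5 library b (adjusted p = 0.0821) or with no filter on low values (adjusted p = 0.0538). Rgs17 and Rgs4 had differences in the other direction, 1.81 ± 0.63 (adjusted p = 0.0566) and 1.404 ± 0.51 (adjusted p = 0.0675), which did not pass. Rgs17 passed in 4 of 15 alternatives, namely upper quartile scaling (adjusted p = 0.0368), quantile normalization (0.0481), no mean-variance trend (0.0492) and leaving out E11.5 library a (0.0381). Rgs4 passed in 3 of 15, namely no filter on low values (0.0426), quantile normalization (0.0402) and leaving out PN library b (0.0494). Their adjusted p reached 0.212 for Rgs17 and 0.649 for Rgs4 over these alternatives. Rgs7 had a difference of 0.01 ± 0.86 (adjusted p = 0.996), an error wide enough that equal steps were not shown.

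The libraries that did not overlap give the same members a second reading. For E15.5 over E11.5, Rgs10, Rgs8 and Rgs4 had all E15.5 libraries higher and Rgs3 all lower, against 42.3% of all genes tested with stages apart (24.6% higher, 17.7% lower). For PN over E15.5, Rgs10, Rgs17, Rgs4 and Rgs7 were apart and higher and Rgs3 apart and lower, against 42.2% of all genes (21.6% higher, 20.6% lower). For PN over E11.5, Rgs10, Rgs17, Rgs4, Rgs7 and Rgs8 were apart and higher and Rgs3 apart and lower, against 40.3% of all genes (23.6% higher, 16.7% lower). Rgs4 again entered the counts at PN through its PN libraries.

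Other genes whose levels followed the 3 most abundant members over the 9 libraries were taken by the highest Pearson correlation of log2(FPKM + 1), as a description in which the points share stages. For Rgs10 these were Dusp3, Calb2 and Dtnbp1, each at r = 0.992; Calb2, which encodes the calcium-binding protein calretinin, had means of 0.213, 22.3 and 92.5 FPKM at E11.5, E15.5 and PN. For Rgs17 they were Arxes1 (r = 0.987), Nap1l5 (r = 0.981) and Rasgef1a (r = 0.980). For Rgs2 they were Snapc1 (r = 0.959), A330076H08Rik (r = 0.915) and 1500015A07Rik (r = 0.894), a looser match in a gene whose stages overlapped.

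Rgs2 is known for fast induction by neuronal activity, so the immediate early genes were set beside it. Their 10-gene sum was 84.5 to 159 FPKM in the E11.5 libraries, 40.3 to 46.0 FPKM in the E15.5 libraries and 222.7 to 334.1 FPKM in the PN libraries, and 8 of 9 tested were called higher for PN over E15.5, of which 5 would not have passed the filter without the PN libraries. Rgs2 had overlapping levels between those stages, and its log2 change was -0.04 ± 0.31 (SE, limma adjusted p = 0.941). The part of handling or activity in these levels was not tested.

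**Figure D4:**
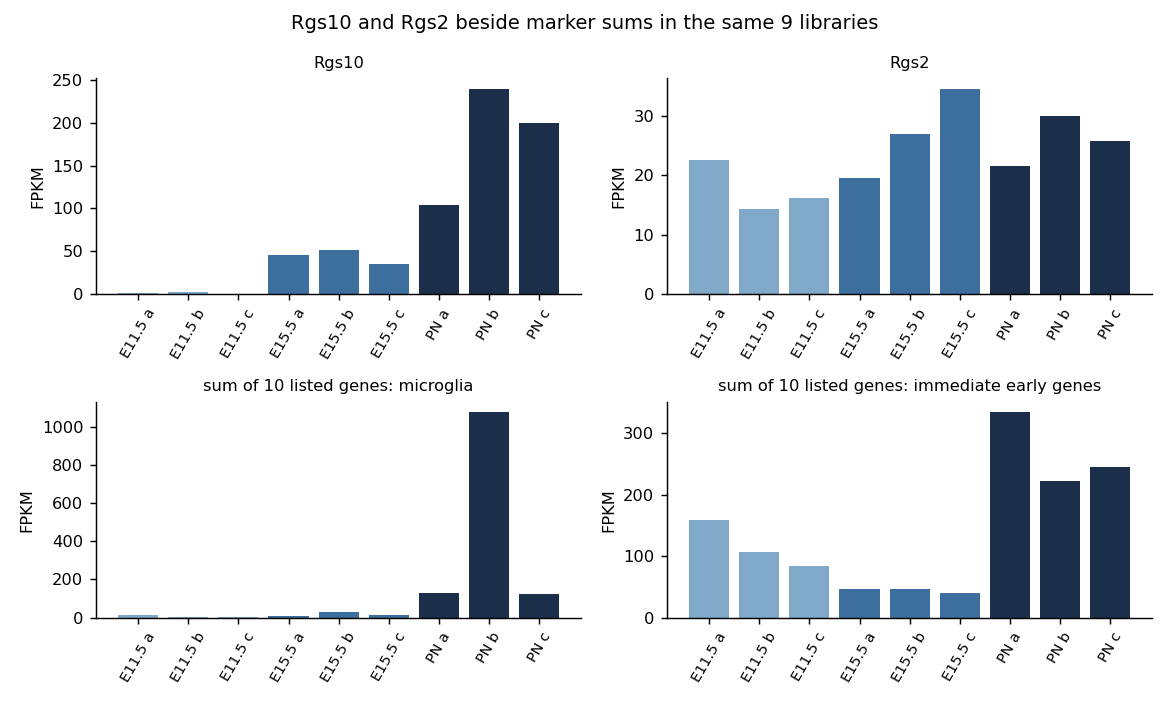
FPKM of Rgs10 and Rgs2 (upper bars) and summed FPKM of 10 microglial and 10 immediate early genes (lower bars) in each of the 9 wild-type libraries (x axis). PN library b has the highest microglial sum at 1076 FPKM and the highest Rgs10 level at 240.0 FPKM. PN libraries a and c have microglial sums of 130.4 and 124.2 FPKM and Rgs10 at 103.9 and 199.4 FPKM. The part of microglial RNA in the Rgs10 level was not tested.

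The signalling genes around the RGS proteins were read from lists, with counts for PN over E11.5 called by limma, where 27.4% of all genes tested were called (17.4% higher, 10.02% lower). Some genes would not have passed the filter without the PN libraries in which they are high, and these had to differ: Rgs11, Gng13, Kcnj3, Adcy7, Htr5b, Adra2a, Chrm2, Adra1b, Hcrtr1 and Tacr3. The lists' counts of higher genes hold them and are no evidence of a share above that of all genes. Of 10 other RGS genes 5 were tested, and 3 were called higher and 1 lower. Rgs11 and Rgs9, which are R7 genes like Rgs7, had means of 0.0368 ± 0.0369 and 0.533 ± 0.493 FPKM in the E11.5 libraries, 1.67 ± 1.36 and 3.66 ± 0.722 FPKM in the E15.5 libraries, and 15.3 ± 5.14 and 8.81 ± 5.12 FPKM in the PN libraries (SD, n = 3 each). Their log2 changes for PN over E11.5 were 3.92 (adjusted p = 3.70e-05) and 2.54 (adjusted p = 0.00172). Rgs19, an RZ gene, was higher by 0.91 (adjusted p = 0.0458), with 130.9 ± 25.5 FPKM at PN and 70.3 ± 19.9 FPKM at E11.5. Rgs12, of the R12 group like Rgs10, was lower by a log2 change of -1.77 (adjusted p = 0.00343). It had 4.21 ± 1.45 FPKM at PN and 17.0 ± 6.89 FPKM at E11.5. Gnb5, the beta subunit that R7 proteins need, was the only 1 of 5 partner genes tested and was called higher, with 91.2 ± 13.1 FPKM at PN and 42.4 ± 18.1 FPKM at E11.5 (log2 change 1.19, adjusted p = 0.0194).

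Of the substrates, 11 of 12 G alpha genes were tested, and 3 were called higher and 2 lower for PN over E11.5. Gnao1, the alpha subunit of Go, rose to 75.0 ± 1.20 FPKM at PN, against 32.6 ± 13.6 FPKM at E11.5 (adjusted p = 0.00865), and Gnai2 fell to 47.2 ± 9.52 FPKM at PN, against 154.0 ± 8.18 FPKM at E11.5 (adjusted p = 5.93e-04). Gnaz, which encodes the Gz subunit that RZ proteins act on, had 19.98 ± 2.85 FPKM in the E11.5 libraries, 8.37 ± 1.96 FPKM in the E15.5 libraries and 45.1 ± 10.5 FPKM in the PN libraries, and was called lower in the first step (adjusted p = 0.0125) and higher in the second (adjusted p = 4.94e-04). Of 13 beta and gamma genes tested 5 were called higher and 1 lower, and Gng13, among the 5, passed the filter through PN. Gng4 had 22.0 ± 1.85 FPKM at PN and 0.904 ± 0.902 FPKM at E11.5 (log2 change 3.70, adjusted p = 3.19e-05). Gng5 had 116.2 ± 36.6 FPKM at PN and 1029 ± 313 FPKM at E11.5 (log2 change -3.14, adjusted p = 1.76e-05).

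Downstream, both tested GIRK genes were called higher for PN over E11.5, Kcnj6 by a log2 change of 2.20 (adjusted p = 0.00120) and Kcnj3 by 1.37 (adjusted p = 0.0329). Kcnj3 passed the filter through PN, with 1.94 ± 1.74 FPKM there and 0.0176 ± 0.0305 FPKM at E11.5. Kcnj6 had 4.00 ± 2.20 FPKM at PN and was listed at 0 at E11.5. Of 6 adenylyl cyclase genes tested 2 were called higher, Adcy2 and Adcy7, the second of which passed through PN, with 1.63 FPKM there and 0.00781 FPKM at E11.5 on average, and of 2 phospholipase C beta genes both were, Plcb4 and Plcb1. Of the Gi/o coupled receptors 6 of 10 tested were called, all higher, 3 of them among the genes that passed through PN. The largest change among the 6 was that of Htr5b, one of those 3, with 8.68 ± 1.14 FPKM at PN, 0.0157 ± 0.0164 FPKM at E11.5 and a log2 change of 3.25 (adjusted p = 1.44e-05). Of the Gq coupled receptors 6 of 7 tested were called, all higher, 3 of them among the genes that passed through PN. The largest change among the 6 was that of Adra1b, one of those 3, with 9.16 FPKM at PN and 0.191 FPKM at E11.5 on average (adjusted p = 1.71e-04). Of 5 other G protein regulators tested limma called 0 for PN over E11.5 (0 with an unadjusted p below 0.05), and Ric8b was called lower for PN over E15.5 (log2 change -1.29, adjusted p = 0.0167).

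The knockout tables hold 1 value per genotype and kit, so no spread between libraries could be given and no test over libraries was run. The targeted gene was measured first: in the authors' deposited tables Fev was at 0.422 FPKM in Pet-1-/- neurons and 31.1 FPKM in wild-type neurons with the Clontech kit (q = 0.00391). With the NuGEN kit the authors' deposited table has 0.308 FPKM in Pet-1-/- neurons and 34.9 FPKM in wild-type neurons (q = 0.00206). A gene was called at q below 0.05, 1.5-fold or more between genotypes and 1 FPKM or more in a genotype. With the Clontech kit 0 of the 9 members the authors tested were called, against 2.33% of all genes (0.802% higher, 1.53% lower), and 0 had an unadjusted p below 0.05. With the NuGEN kit 3 of 9 were called, all higher in the knockout, against 10.5% of all genes (6.75% higher, 3.75% lower), and 3 had an unadjusted p below 0.05.

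The 3 called genes were Rgs10, Rgs17 and Rgs20. In the authors' deposited NuGEN table Rgs20 had 6.11 FPKM in Pet-1-/- neurons and 1.68 FPKM in wild-type neurons, a ratio of 3.64 (q = 0.00206). Its Clontech values in the authors' deposited table were 2.20 FPKM in Pet-1-/- neurons and 2.17 FPKM in wild-type neurons (q = 0.992). Whether the knockout difference itself differed between the kits was not tested.

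Rgs17 had 8.40 FPKM in Pet-1-/- neurons and 4.33 FPKM in wild-type neurons in the authors' deposited NuGEN table (ratio 1.94, q = 0.00206). With the Clontech kit the authors' deposited table has 8.21 FPKM in Pet-1-/- neurons and 6.23 FPKM in wild-type neurons (ratio 1.32, p = 0.0506, q = 0.323). Rgs10 had 45.3 FPKM in Pet-1-/- neurons and 24.4 FPKM in wild-type neurons in the authors' deposited NuGEN table (ratio 1.86, q = 0.00837). With the Clontech kit the authors' deposited table has 45.5 FPKM in Pet-1-/- neurons and 39.0 FPKM in wild-type neurons (ratio 1.17, q = 0.725). The tables of the kits were normalised separately, so levels were not compared across them.

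The remaining members were not called with either kit. In the authors' deposited tables Rgs2 had 25.2 FPKM in Pet-1-/- and 30.5 FPKM in wild-type neurons with the Clontech kit, and 27.4 FPKM in Pet-1-/- and 24.9 FPKM in wild-type neurons with the NuGEN kit. In those authors' deposited tables Rgs3 had 5.62 FPKM in Pet-1-/- and 6.30 FPKM in wild-type neurons (Clontech) and 9.89 FPKM in Pet-1-/- and 11.4 FPKM in wild-type neurons (NuGEN). Rgs7 had 4.66 FPKM in Pet-1-/- and 3.98 FPKM in wild-type neurons (Clontech) and 3.43 FPKM in Pet-1-/- and 3.50 FPKM in wild-type neurons (NuGEN) in the authors' deposited tables. Rgs8 had 3.31 FPKM in Pet-1-/- and 3.92 FPKM in wild-type neurons (Clontech) and 3.74 FPKM in Pet-1-/- and 3.86 FPKM in wild-type neurons (NuGEN) in the authors' deposited tables. These 4 differed by ratios between 0.827 and 1.17. Rgs4 had 0.133 FPKM in Pet-1-/- and 0.484 FPKM in wild-type neurons in the authors' deposited Clontech table (p = 0.0568) and 0.601 FPKM in Pet-1-/- and 0.786 FPKM in wild-type neurons in the NuGEN table, all below 1 FPKM. Rgs16 had 0.597 FPKM in Pet-1-/- and 0.182 FPKM in wild-type neurons in the authors' deposited Clontech table and 1.03 FPKM in Pet-1-/- and 0.988 FPKM in wild-type neurons in the NuGEN table. Rgs5 was not tested by the authors, with 0.197 FPKM in Pet-1-/- and 0.219 FPKM in wild-type neurons in the deposited Clontech table, and listed at 0 in both genotypes in the NuGEN table.

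**Figure D5:**
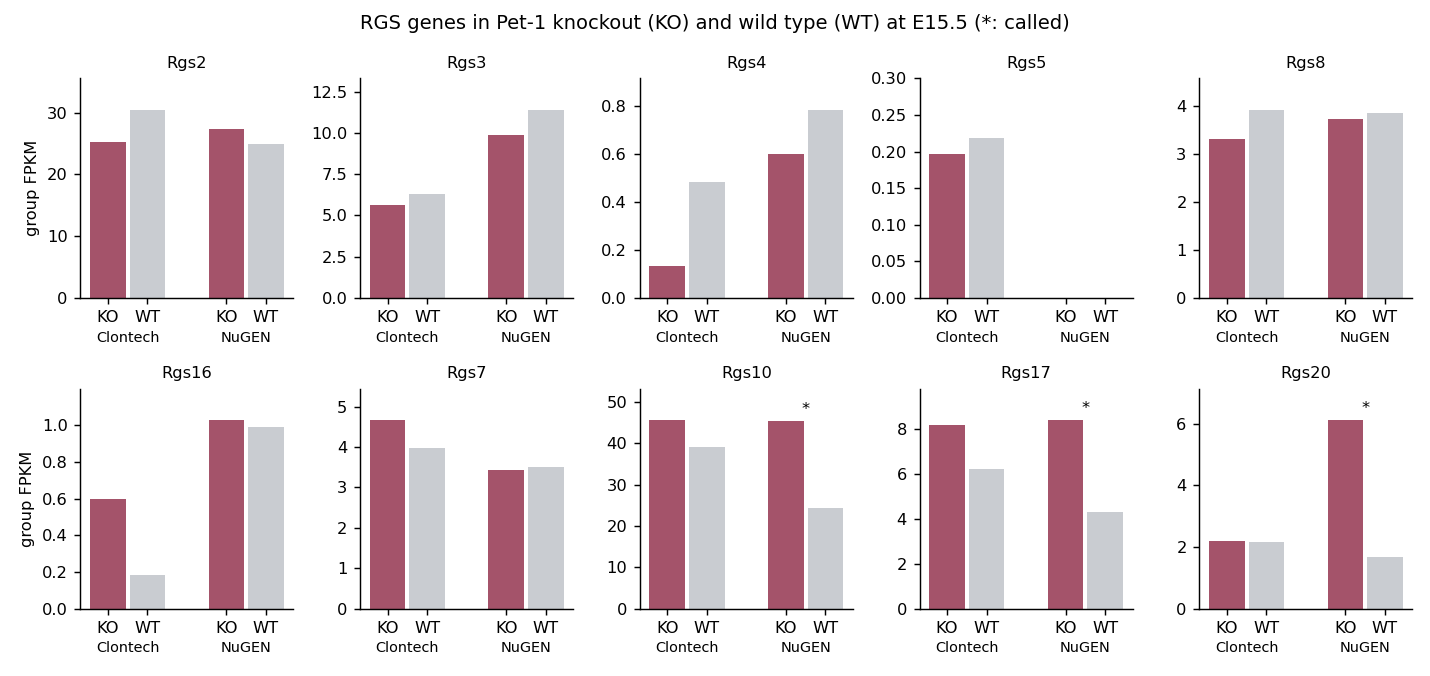
Group FPKM (y axis, its own linear scale per gene) of each RGS gene in E15.5 neurons from the authors' deposited tables, knockout (KO) left of wild type (WT), for the Clontech and the NuGEN kit, with 1 value per bar, no error, and an asterisk on called differences. Rgs10, Rgs17 and Rgs20 are called higher in the knockout with the NuGEN kit, and Rgs20 is at 2.20 FPKM in KO and 2.17 FPKM in WT with the Clontech kit.

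Marker genes of other cell types were read beside these values. In the authors' deposited tables the 8 genes of astrocytes and radial glia summed to 491.7 FPKM in Pet-1-/- and 1422 FPKM in wild-type neurons with the Clontech kit, with 5 of 7 called lower. With the NuGEN kit the authors' deposited table gives 315.6 FPKM in Pet-1-/- and 191.3 FPKM in wild-type neurons for these genes, with 1 called higher and 2 lower. The 10 microglial genes summed to 2.15 FPKM in Pet-1-/- and 14.54 FPKM in wild-type neurons (Clontech) and to 0.866 FPKM in Pet-1-/- and 2.06 FPKM in wild-type neurons (NuGEN) in the authors' deposited tables, with 0 called with either kit (4 of 8 and 1 of 5 tested with an unadjusted p below 0.05). The 9 serotonin neuron genes summed to 247.2 FPKM in Pet-1-/- and 516.9 FPKM in wild-type neurons (Clontech) and to 430.8 FPKM in Pet-1-/- and 1055 FPKM in wild-type neurons (NuGEN) in the authors' deposited tables, with 5 and 6 of 9 called lower. Pericyte genes summed to 4.35 FPKM in Pet-1-/- and 39.3 FPKM in wild-type neurons (Clontech), with 1 of 2 called lower, and to 5.21 FPKM in Pet-1-/- and 4.23 FPKM in wild-type neurons (NuGEN), with 0 of 1 called, in the authors' deposited tables. The oligodendrocyte lineage summed to 29.4 FPKM in Pet-1-/- and 35.1 FPKM in wild-type neurons (Clontech), with 0 of 6 called, and to 17.6 FPKM in Pet-1-/- and 11.3 FPKM in wild-type neurons (NuGEN), with 2 of 6 called higher, in the authors' deposited tables. Other neurons summed to 4.78 FPKM in Pet-1-/- and 8.58 FPKM in wild-type neurons (Clontech), with 0 of 4 called, and to 3.24 FPKM in Pet-1-/- and 3.21 FPKM in wild-type neurons (NuGEN), with 1 of 2 called higher, in the authors' deposited tables. Of the immediate early genes 2 of 8 were called lower in the knockout with the Clontech kit and 0 of 8 with the NuGEN kit (2 with an unadjusted p below 0.05) in the authors' deposited tables. With the Clontech kit 0 of 2 endothelial and 0 of 3 red blood cell genes the authors tested were called (0 with an unadjusted p below 0.05), and with the NuGEN kit 0 of either were tested. The part of these differences in the RGS values was not tested. The wild-type Clontech values lay close to the means of the E15.5 stage libraries, with a median ratio of 1.01 and 0.874 to 1.19 for 5% to 95% of 6386 genes, so the Clontech comparison and the stage series were not treated as independent.

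Among the G protein genes around the members, the authors' deposited Clontech table has 3 of 74 tested called, against 2.33% of all genes: Gng5 and Tacr1 lower and Cnr1 higher in the knockout. The authors' deposited NuGEN table has 9 of 76 tested called in these lists, 4 higher and 5 lower, against 10.5% of all genes (6.75% higher, 3.75% lower). Among them was Htr1a, the Gi/o-coupled serotonin autoreceptor, with 1.02 FPKM in Pet-1-/- and 5.70 FPKM in wild-type neurons (q = 0.00206). Tacr1, a Gq-coupled receptor for tachykinins, was called lower with both kits, with 0.451 FPKM in Pet-1-/- and 1.69 FPKM in wild-type neurons (Clontech) and 0.452 FPKM in Pet-1-/- and 1.39 FPKM in wild-type neurons (NuGEN) in the authors' deposited tables. Of the 10 other RGS genes, 0 of 6 tested were called with either kit in the authors' deposited tables (2 and 0 with an unadjusted p below 0.05).

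The mycPet-1 peak list of 4934 peaks, called by the authors on the 1 chromatin sample, held no peak in the span of a member plus 5 kb upstream of its start. That is 0 of 10 members, against 23.1% of 21900 protein-coding genes. Rgs20 has no strand in the tables used, so 5 kb on both of its sides were searched. The count was also 0 within 5 kb of the gene start (21.7% of all genes), with peaks of a score of at least 100 (10.5%) and with at least 50% of the peak required inside (22.8%). With 50 kb on both sides it was 2 of 10, against 44.7% of all genes. The peak near Rgs3 lies at chr4:62524662-62525656 (mm10), 34.2 kb from the gene, with a deposited score of 192.87, and lies over Pole3. The peak near Rgs20 lies at chr1:5082709-5083309, 12.4 kb from the gene, with a deposited score of 69.09, and lies over Atp6v1h. For the other members the nearest peak was 104.3 kb (Rgs10) to 5157 kb (Rgs2) away. With 1 sample there is no replicate of these positions.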

How the data were processed

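RNA of sorted neurons was measured in 18 libraries and mycPet-1 chromatin in 1 sample with 1 input. The authors deposited FPKM for each library of the stage series, and for each genotype and kit of the knockout in what the file headers show to be Cuffdiff tables. Each gene of the authors' deposited tables also has a log2 fold change, a p-value and a q-value. Peaks were deposited by the authors on mm10 with a score per peak. The submitters' processing notes name mm9 and mm10 as builds and TopHat2, Cufflinks, BWA and MACS 1.4.2 as tools, without saying which step used which. Read numbers, strand use and any rescaling between libraries are not stated in those notes or the labels.

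The stage columns carry no replicate number, so libraries were lettered a to c in column order. The E15.5 columns name no kit and were taken as Clontech from the labels' protocol. Of the other columns, 3 match no sample and stayed unused. Left out were 14 genes with a failed estimate, listed at 0 in some libraries. Stages were compared by limma 3.58.1 (R 4.3.3), fitted to log2(FPKM + 1) with a mean-variance trend and Benjamini-Hochberg adjustment over all genes tested, as 1 fit over 9 libraries with 6 residual degrees of freedom. The procedure was also run on simulated data in which only genes above a low level were changed. It therefore says nothing about calls near the bottom of the scale. Knockout values and their q are the authors'. Peaks were set against RefSeq GRCm38.p6 gene spans, the assembly behind mm10, with at least 1 base of overlap.

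The members, the gene lists and the markers were chosen with earlier results of these data known. Named are all 10 members. From each signalling list, called genes are named, at most 4 for a comparison by the largest change. For each of the 3 members with the highest mean, the 3 genes with the highest correlation are named. Alternatives covered scaling, pseudocount, filter, trend, samples in the fit, the authors' q, fold and FPKM limits, peak windows, and leaving out each library.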

Additional observations from a re-analysis of the deposited data

How the results depend on the processing

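The count of called members for E15.5 over E11.5 moved by over 1.5 times in 11 of 17 alternatives, and that for the difference between intervals in 7 of 15. For E15.5 over E11.5 the count of 2 was 1 with quantile normalization and in a fit of the 2 stages alone, 4 by the q of the authors' deposited table (Rgs2, Rgs3, Rgs8 and Rgs10), and 1 to 3 when each library was left out in turn, with 1 (Rgs10) in every such fit except that without E11.5 library a. Where the count stayed at 2, the members were Rgs10 and Rgs4 with a pseudocount of 0.1, Rgs10 and Rgs3 (lower) with no filter or with upper quartile scaling, and Rgs10 and Rgs8 with median centring or no mean-variance trend. For PN over E15.5 and PN over E11.5 the counts of 3 and 6 were within 1.5 times under every alternative run. For the difference between intervals the count of 1 was Rgs4 in place of Rgs10 with no filter, and was 2 with upper quartile scaling, 3 with quantile normalization, 2 with no mean-variance trend, and 0 to 2 when each library was left out in turn. The NuGEN count of 3 was 1 at 2-fold or more (Rgs20), and the peak count of 0 was 2 with 50 kb on both sides. Some uncalled changes turned sign. Rgs2 for PN over E15.5 was 0.031 with upper quartile scaling, 0.017 with quantile normalization and -0.25 to 0.15 with a library left out. Rgs8 for PN over E15.5 was -0.051 with median centring, -0.093 with quantile normalization and -0.079 to 0.17 with a library left out. With a library left out, Rgs20 ran between -0.68 and 0.060 for PN over E15.5 and between -0.40 and 0.35 for PN over E11.5. The interval difference of Rgs7 was -0.92 with a pseudocount of 0.1, -0.075 with median centring and -0.58 to 0.53 with a library left out. The cause was not tested. Of the single results of members, 459 kept their direction and side of the threshold, 30 lost and 16 gained a call, and 15 turned sign. The median change of all genes for E15.5 over E11.5 was 0.11, and -0.02 with upper quartile scaling or quantile normalization. No paired analysis was possible because the columns carry no replicate number of the labels and the knockout tables hold group values. Depth is unknown, so what it limits could not be stated.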
